A study of Mus musculus with 7 samples.

Results

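The transcripts described here are 34 genes of the kidney's proximal tubule, read in RNA from bead-isolated kidney endothelial cells. They were chosen by name, as rows of the deposited table whose symbol belongs to a list of proximal tubule genes. All 34 were found, each on 1 entry, among 26558 named genes, and all 34 passed a filter of a mean FPKM (sequenced fragments scaled to transcript length and library size, the authors' unit) of at least 1, which 13420 genes passed. Cells of kidneys from 3-month-old male C57BL/6 mice were captured on beads through Cd31, a surface protein of endothelium, and their RNA was extracted without culture. There were 4 mutant libraries, from mice carrying Hoxb7-Cre-GFP and a loxP-flanked Vhlh gene on both alleles (Hoxb7-Cre-GFP-VhlhloxP/loxP), and 3 wildtype libraries, from mice carrying Hoxb7-Cre-GFP without the loxP alleles. The Cre and the GFP were therefore shared by all groups. The labels call the knockout tubule-specific. Hoxb7-Cre is known as a driver of the ureteric bud lineage, which forms the collecting duct, and not as one of the proximal tubule. Whether libraries came from different animals is not stated in the labels, and the p-values below therefore reflect library-to-library spread, which may be technical.

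The proximal tubule takes back most of the filtered glucose, amino acids, phosphate, bicarbonate and protein, and it makes glucose. Its segments follow each other as S1, S2 and S3. Glucose is first taken up with high capacity by SGLT2 in S1 and then with high affinity by SGLT1 in S3, and organic anions are secreted mainly in S2. The cells are the most abundant of the kidney cortex. The transcripts below were chosen as genes of these cells, but not all are confined to them. Endothelium, for example, also uses Ass1 to remake arginine. Which cells each transcript came from was not tested. Slc7a7 and Fbp1 are also known from macrophages. For segment counts, 10 members were placed in S1 (several of them also present in S2), 2 in S2 and 6 in S3, and 16 were treated as genes of the whole tubule or of no single segment.

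The members are spread over the genome. In the GENCODE M21 annotation of mm10, 10 lie on chromosome 2, and 4 organic anion transporters lie on chromosome 19. Promoter windows from RefSeq (build GRCm38.p6), reaching from 250 bases before to 50 bases after a gene's start, were found for 29 members. The letters CAAAGTCCA of the hepatocyte nuclear factor 4 motif, read on either strand, were in a window of 1 of the 29, Slc3a1, the heavy chain of the cystine transporter of S3. They were in a window of 0.555% of all 27025 genes in the table and of 3 of 45 other proximal tubule genes. The variant CAAAGGTCA and the androgen response element were in 0 of 29 members. The window of Slc3a1 is shown because it holds the match, in capitals, and was picked after the match had been seen. A match of letters is a description of the window and no evidence of binding, and no match says only that these letters are not in it.
Slc3a1 (chr17:85028097-85028396, plus strand): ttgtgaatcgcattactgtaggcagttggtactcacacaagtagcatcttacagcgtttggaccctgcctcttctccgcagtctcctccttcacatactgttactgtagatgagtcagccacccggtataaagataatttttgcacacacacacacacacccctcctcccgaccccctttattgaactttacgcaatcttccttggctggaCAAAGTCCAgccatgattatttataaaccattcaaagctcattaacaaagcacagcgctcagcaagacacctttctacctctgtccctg
The match reads on the gene's own strand and begins 39 bases before the start.

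Endothelial markers were high in every library: the 20 genes of a pan-endothelial list summed to an FPKM of 2796 to 4213 in wildtype and of 4255 to 5001 in mutant libraries, and Pecam1, the gene for Cd31, was at 202 to 385. Vhl was at 6.71 to 8.24 in wildtype and 5.57 to 6.41 in mutant libraries (limma adjusted p = 0.123, not called). Since the Cre acts outside the endothelium, its level here does not test the labels. FPKM values hold no read totals, so absolute depth is unknown. The number of genes at an FPKM of 1 or more was 13222 to 13337 in the 7 libraries.

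RNA of the proximal tubule genes was present in every isolate, and its amount differed more between libraries of a group than between the groups. All 34 members were at an FPKM of at least 1 in each of the 7 libraries. Together they took 1.07, 0.923 and 1.61% of the named FPKM in wildtype 1, 2 and 3 and 0.818, 0.473, 0.542 and 2.19% in mutant 1 to 4. Kap alone, the androgen-regulated kidney protein, held 65.6 to 70.7% of this in wildtype libraries and from 12.5% (mutant 2) to 75.2% (mutant 4) in mutant libraries. Without Kap the shares were 0.312, 0.306 and 0.554% in wildtype and 0.454, 0.414, 0.237 and 0.543% in mutant libraries. Wildtype 3 and mutant 4 were high and mutant 3 was low, and the groups overlapped. Fewer proximal tubule cells and less RNA per cell cannot be told apart in such bulk samples.

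Expressed as the median over the 34 members of the ratio to the wildtype mean, the level was 0.739, 0.779 and 1.48 in wildtype 1 to 3 and 1.12, 1.05, 0.529 and 1.44 in mutant 1 to 4. A separate list of other proximal tubule genes, 52 of 56 of which were tested, gave 0.796, 0.785 and 1.43 and then 1.16, 1.06, 0.574 and 1.44. Both lists put the libraries in nearly the same order, from mutant 3 to wildtype 3 and mutant 4. Other cell types did not put all libraries in this order, but some shared parts of it. Within wildtype, the thick ascending limb, distal convoluted tubule and phagocyte lists were also highest in wildtype 3 (1.03, 1.16 and 1.28). The collecting duct, podocyte and pan-endothelial lists were lowest there. The distal convoluted tubule list was also highest in mutant 4 (1.84), but was at 1.59 in mutant 3. The thick ascending limb list was at 0.958 to 1.03 in wildtype and 1.14 to 1.70 in mutant libraries, highest in mutant 3. The collecting duct list was at 0.898 to 1.09 and 0.896 to 1.46, also highest in mutant 3. The pan-endothelial list was at 1.19, 1.03 and 0.792 in wildtype 1 to 3, lowest where the proximal tubule level of that group was highest. In mutant libraries it was at 1.21 to 1.32, highest in mutant 4, where the proximal tubule level was also highest. The phagocyte list, whose 12 genes summed to an FPKM of 2671 to 4324 in wildtype and 699.8 to 1640 in mutant libraries, was at 0.760 to 1.28 and at 0.171 to 0.441. None of the genes of these lists was at 0 in a library. Their part in the values of the proximal tubule genes was not tested.

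**Figure D1:**
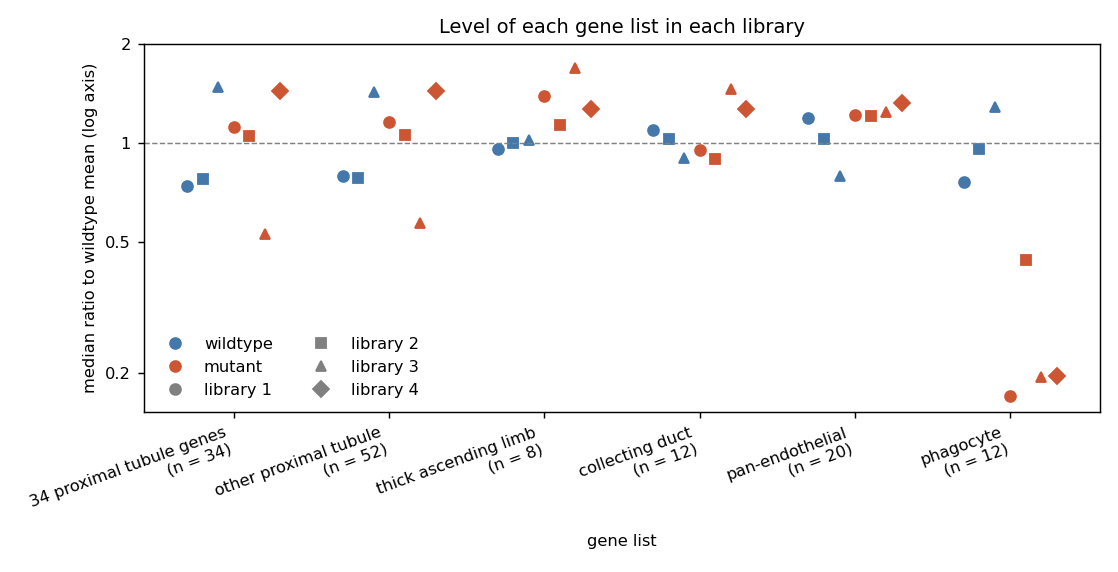
Level of 6 gene lists in each library, as the median over a list's genes of the ratio to the mean of the wildtype libraries (vertical, log axis), for 3 wildtype (blue) and 4 mutant (orange) libraries with a marker shape per library number. The 34 proximal tubule genes run from 0.529 in mutant 3 to 1.48 in wildtype 3 with the groups interleaved, while the phagocyte list lies at 0.171 to 0.441 in the mutant libraries and at 0.760 to 1.28 in wildtype.

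Within the wildtype group the members were nearly level between wildtype 1 and wildtype 2 and all higher in wildtype 3, by differing amounts. The ratio of wildtype 2 to wildtype 1 had a median of 1.01 and ran from 0.845 (Slc22a30) to 1.17 (Slc7a8). Wildtype 3 exceeded wildtype 1 in 34 of 34 members, by a median of 2.0-fold, from 1.13-fold for Napsa to 3.32-fold for Pck1. Among mutant libraries mutant 3 stood below mutant 1 in 34 of 34 members, with a median ratio of 0.470 and a range from 0.226 (Slc13a1) to 0.965 (Slc7a13), and mutant 4 exceeded mutant 3 in 32 of 34, by a median of 2.29-fold. Other pairs were mixed: mutant 4 exceeded mutant 2 in 20 of 34 members, with ratios from 0.387 (Slc5a12) to 29.4 (Kap). The highest mutant value of FPKM + 1 was at least 2 times the lowest for 30 of 34 members, against 6.32% of all tested genes, and its median was 2.76 for members and 1.26 for all tested genes. These limits were set after the values were seen. In wildtype the highest was at least 1.5 times the lowest for 30 of 34, against 8.38%, with medians of 1.98 and 1.16. Mutant 3 held the lowest value of 21 members and wildtype 3 the highest of 13, mutant 4 of 11 and mutant 1 of 7.

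**Figure D2:**
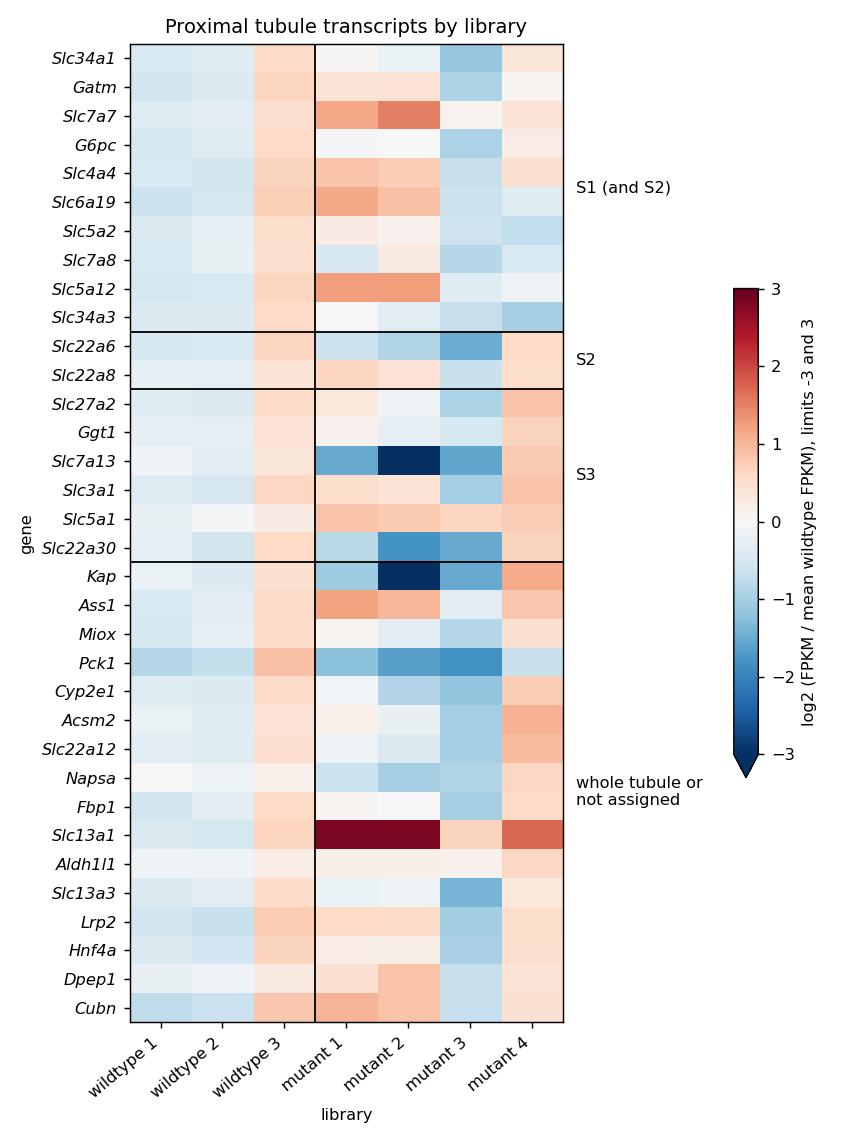
Each of the 34 members (rows, grouped by segment and ordered by level) in each of the 7 libraries (columns), coloured by log2 of the ratio of FPKM to the wildtype mean. Wildtype 3 is high and mutant 3 low for most rows, and Slc7a13 and Kap are far below the wildtype mean in mutant 2, past the lower colour limit of -3.

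The endocytic receptors followed the general level in its low libraries, but not in mutant 4. Lrp2, megalin, the giant receptor that takes up filtered protein (chromosome 2, 69424340 to 69586065), was at an FPKM of 11.2, 10.3 and 27.7 in wildtype 1 to 3 and of 24.7, 24.3, 7.97 and 23.5 in mutant 1 to 4. Cubn, its partner cubilin, was at 3.17, 3.41 and 9.40 and at 10.75, 9.66, 3.31 and 7.36. Both were low in wildtype 1, wildtype 2 and mutant 3, and the groups overlapped. In mutant 4, where the general level was the highest of the mutant group, both lay below mutant 1 and mutant 2, Lrp2 only slightly. Hnf4a, the transcription factor that drives proximal tubule maturation, was at 12.3, 11.2 and 26.4 in wildtype and 19.3, 18.9, 8.49 and 23.6 in mutant libraries, with the same libraries low.

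Of the S1 transporters, Slc5a2 (SGLT2) was at an FPKM of 10.3, 11.4 and 19.96 in wildtype and of 16.5, 15.2, 8.99 and 8.36 in mutant libraries. Slc34a1, the main apical phosphate transporter, was at 122, 130.2 and 249.7 and at 172, 146, 75.8 and 214. Slc34a3, the minor one, was the lowest member by its mean, at 1.67, 1.68 and 3.36 and at 2.23, 1.76, 1.38 and 1.12. Mutant 4 was thus below every wildtype library for Slc5a2 and Slc34a3 but between wildtype 2 and wildtype 3 for Slc34a1. Slc5a12, a lactate transporter, was at 4.32, 4.48 and 9.63 in wildtype and at 14.65, 14.55, 4.78 and 5.63 in mutant libraries. Slc6a19, the main apical carrier of neutral amino acids, was at 8.16, 8.88 and 20.9 and at 27.6, 23.4, 8.09 and 9.86. For both genes mutant 1 and mutant 2 lay above every wildtype library, and mutant 3 and mutant 4 lay within or below the wildtype range. Slc7a7, a basolateral carrier of cationic amino acids, was at 13.4, 13.8 and 24.2 and at 37.9, 48.6, 18.5 and 22.8. Slc7a8, a basolateral carrier of neutral amino acids, was at 10.6, 12.5 and 20.5 and at 10.5, 17.5, 8.07 and 10.6. These amino acid carriers of the same cell side differed: mutant 1 was above every wildtype library for Slc7a7 and level with the lowest for Slc7a8. The remaining S1 members overlapped between groups: Slc4a4, the basolateral bicarbonate exit, was at 9.25 to 21.7 and 8.46 to 24.6, Gatm, which makes the creatine precursor, at 42.0 to 97.1 and 32.4 to 83.4, and G6pc at 13.9 to 29.9 and 10.2 to 23.0.

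The S2 organic anion transporters lie beside each other on chromosome 19, Slc22a8 at 8591254 to 8611835 and Slc22a6 at 8618039 to 8628299. Slc22a6 was at an FPKM of 18.8, 19.1 and 41.3 in wildtype and of 16.9, 14.1, 9.38 and 40.3 in mutant libraries. Slc22a8 was at 12.9, 12.9 and 20.6 and at 24.2, 20.8, 9.74 and 22.4. The neighbours parted where mutant 1 and mutant 2 were read: Slc22a6 lay below every wildtype library and Slc22a8 at or above the highest.

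S3 members differed widely in how much they varied among mutant libraries. Slc5a1 (SGLT1; chromosome 5, 33104219 to 33162870) was at an FPKM of 5.52, 6.29 and 7.63 in wildtype and of 11.7, 11.2, 10.1 and 10.75 in mutant libraries, and the groups did not overlap. Slc7a13, an S3 carrier of aspartate, glutamate and cystine (chromosome 4, 19818725 to 19842218), was at 22.3, 19.0 and 30.6 in wildtype and at 8.43, 1.53, 8.14 and 41.0 in mutant libraries. Its 3 lower mutant libraries lay below every wildtype library and mutant 4 above all of them, a 26.9-fold range within the mutant group. Slc22a30, a putative organic anion transporter, was at 5.72, 4.83 and 10.6 and at 3.94, 2.03, 2.48 and 11.2, the same split. It lies among close copies of its family on chromosome 19, so its reads may be shared with theirs. Slc27a2, which carries and activates fatty acids, was at 100.4, 98.3 and 190.4 in wildtype and at 160.4, 118, 67.4 and 233 in mutant libraries. Slc3a1 was at 12.0, 11.0 and 24.0 and at 22.7, 21.0, 7.79 and 28.3, and Ggt1, the brush border enzyme that splits glutathione, at 37.6, 36.9 and 61.2 and at 49.8, 37.9, 31.4 and 71.9. These last S3 genes were lowest in mutant 3 and highest in mutant 4, with overlapping groups.

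The summed FPKM of the S3 members did not keep the same proportion to that of the S1 members in every mutant library. It was 0.776, 0.694 and 0.653 times the S1 sum in wildtype 1 to 3 and 0.631, 0.489, 0.721 and 1.05 times in mutant 1 to 4. Single genes weigh heavily in these sums. In mutant 4, Slc27a2 held 233 of the S3 sum of 396, and Slc34a1 held 214 of the S1 sum of 379. From mutant 2 to mutant 4, S1 members had a median ratio of 0.620, with 2 of 10 higher in mutant 4, and S3 members of 1.93, with 5 of 6 higher. Members of a segment parted, however. Slc34a1 of S1 was at 1.47, and within S3 the ratio ran from 0.963 for Slc5a1 to 26.9 for Slc7a13. Relative to Lrp2 in the same library, Slc7a13 was at 1.99, 1.85 and 1.11 in wildtype and at 0.342, 0.0628, 1.02 and 1.75 in mutant libraries. These ratios, and the pairing of mutant 2 with mutant 4, were chosen after the values were seen and describe single libraries, with no test of a segment score.

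**Figure D3:**
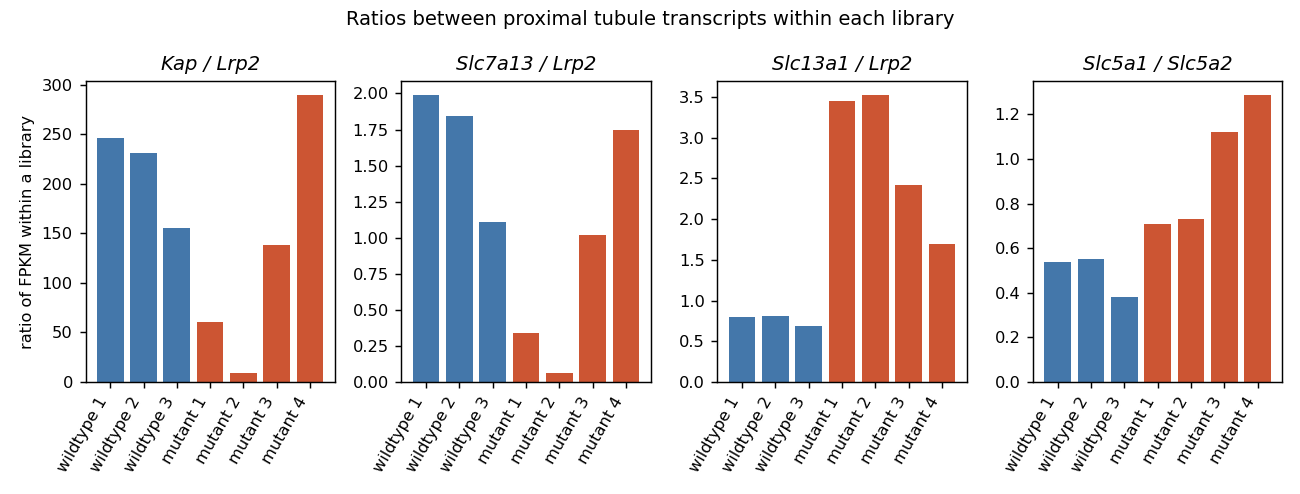
Ratios of FPKM between pairs of members within each library (bars from 0), for 3 wildtype (blue) and 4 mutant (orange) libraries. Kap over Lrp2 runs from 9.52 in mutant 2 to 289 in mutant 4, Slc13a1 over Lrp2 is 0.688 to 0.811 in wildtype and 1.69 to 3.52 in mutant libraries, and Slc5a1 over Slc5a2 is 0.382 to 0.551 and 0.711 to 1.29.

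Kap (chromosome 6, 133849851 to 133853762), by far the highest member, was at an FPKM of 2760, 2378 and 4303 in wildtype 1 to 3 and of 1507, 231, 1099 and 6791 in mutant 1 to 4. Mutant 1, 2 and 3 lay below every wildtype library and mutant 4 above every one. By its mean over the 7 libraries it ranked 5th of the named genes. Relative to Lrp2 it was at 246, 231 and 155 in wildtype and at 61.1, 9.52, 138 and 289 in mutant libraries, so wildtype 3, high in both, was the lowest of its group in this ratio. Napsa, an aspartic protease, had the same split as Kap, with 70.1, 63.6 and 79.1 in wildtype and 45.1, 35.4, 37.9 and 109 in mutant libraries.

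Slc13a1, the apical sulfate transporter (chromosome 6, 24088283 to 24168092), was at an FPKM of 8.92, 8.36 and 19.0 in wildtype 1 to 3 and of 85.3, 85.5, 19.3 and 39.7 in mutant 1 to 4. Mutant 1 and mutant 2 were far above the other libraries, and mutant 3 lay just above wildtype 3. Its relative Slc13a3, a basolateral dicarboxylate transporter, showed no such pattern, at 20.1, 21.4 and 39.98 and at 23.8, 25.0, 10.3 and 33.6. Slc22a12, the urate transporter, was at 49.2 to 89.8 in wildtype and 31.7 to 122 in mutant libraries.

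Among the enzymes, Pck1, which commits carbon to glucose synthesis, was at an FPKM of 64.6, 70.8 and 214 in wildtype and of 50.01, 37.7, 33.1 and 72.9 in mutant libraries. Wildtype 3 was far above every other library, and mutant 4 lay just above wildtype 2. Fbp1, another enzyme of glucose synthesis, was at 42.2, 49.0 and 94.0 and at 65.4, 61.0, 31.1 and 92.7. Ass1, of the arginine pathway, was at 136, 146 and 276 and at 426, 372, 149.7 and 326. For Ass1, mutant 1, 2 and 4 lay above every wildtype library and mutant 3 inside the wildtype range. Aldh1l1, of folate metabolism, varied least among mutant libraries after Slc5a1, at 26.4 to 33.9 in wildtype and 31.6 to 44.7 in mutant libraries. Miox, which breaks down inositol, Acsm2, an acyl-CoA synthetase, Cyp2e1, a cytochrome P450, and Dpep1, a membrane dipeptidase, each had overlapping groups, from 3.86 (Dpep1) to 253 (Miox) over the 7 libraries.

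**Figure D4:**
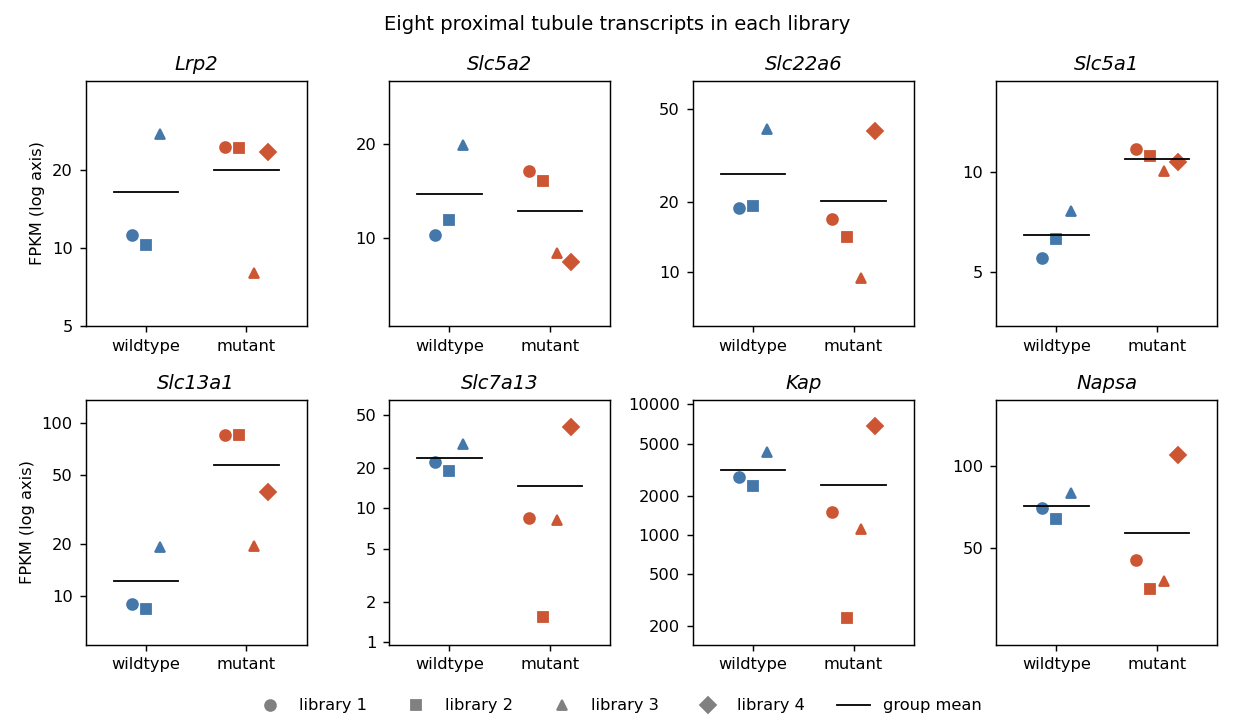
FPKM (log axis) of Lrp2, Slc5a2, Slc22a6, Slc5a1, Slc13a1, Slc7a13, Kap and Napsa in 3 wildtype (blue) and 4 mutant (orange) libraries, with a marker shape per library number and a line at the group mean. For Slc5a1 all mutant points lie above the wildtype points. For Slc13a1 they do so only barely, with mutant 3 at 19.3 and wildtype 3 at 19.0. Kap runs from 231 in mutant 2 to 6791 in mutant 4.

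Compared between genotypes, Slc5a1 and Slc13a1 were higher in the mutant isolates, and no other member was called. Slc5a1 had a mean FPKM of 6.48 ± 1.07 in wildtype (SD, n = 3) and rose to 10.9 ± 0.690 in mutant isolates (SD, n = 4). On the log2(FPKM + 1) scale this was a difference of 0.68 with a standard error of 0.106 (limma, Benjamini-Hochberg adjusted over 13420 genes, adjusted p = 0.00588). Slc13a1 rose from 12.1 ± 6.01 to 57.5 ± 33.3, by 2.02 on the same scale with a standard error of 0.535 (limma adjusted p = 0.0415). The count of 2 of 34 members called higher stands beside 8.76% of all tested genes, and the 0 of 34 called lower beside 7.34%, so the members held calls at no more than about the rate of the whole table. At an unadjusted p under 0.05 there were 3 higher members, the third being Slc7a7, and 1 lower, Pck1, against 32.4% of all genes in either direction. Mutant libraries lay above every wildtype library for 2 of 34 members, where 18.9% of tested genes did so, and below every one for 0, where 12.5% did. The median log2 fold change of the members was 0.04, the same as that of all genes tested.

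The 32 members not called had log2 fold changes from -1.33 (Slc7a13, standard error 0.800) to 0.81 (Slc7a7, standard error 0.348), 17 above and 15 below 0, with limma adjusted p from 0.136 to 0.991. The median standard error was 0.394 for members and 0.110 for all tested genes, so a difference of the size found for Slc5a1 was not detectable in most members. By segment, 0 of 10 S1 members were called (median log2 fold change -0.002, 1 higher at an unadjusted p under 0.05 in limma), 0 of 2 in S2 (median -0.11, 0 at that p) and 1 of 6 in S3 (median 0.07).

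The Slc5a1 call held without any single library (limma adjusted p from 0.00786 to 0.0364). It ended after scaling on the pan-endothelial list (log2 difference 0.38, limma adjusted p = 0.204), whose level was itself higher in the mutant libraries. SGLT1 is also known from the macula densa at the end of the thick ascending limb, and 2 of 8 genes of the thick ascending limb list, Cldn16 and Ptger3, were called higher, where 8.76% of all tested genes were. The log2 difference was above 0 for 7 of the 8 and was -0.37 for Egf, which was not called. The summed FPKM of that list was 1561 to 1826 in wildtype and 1825 to 2929 in mutant libraries. Its part in the Slc5a1 result was not tested. The Slc13a1 call was lost without wildtype 1, 2 or 3 or mutant 1, 2 or 4 (limma adjusted p = 0.118, 0.151, 0.0596, 0.0949, 0.0806 and 0.073). It was also lost with no filter, with median-of-ratios scaling and after scaling on the pan-endothelial list (limma adjusted p = 0.0774, 0.0522 and 0.056). The log2 fold change of Slc13a1 stayed at 1.75 to 2.45 in the fits that left out 1 library, mutant 3 included. Ass1 was called higher without mutant 3 (log2 fold change 1.08, limma adjusted p = 0.0403), and Napsa lower without mutant 4 (-0.83, limma adjusted p = 0.0112).

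**Figure D5:**
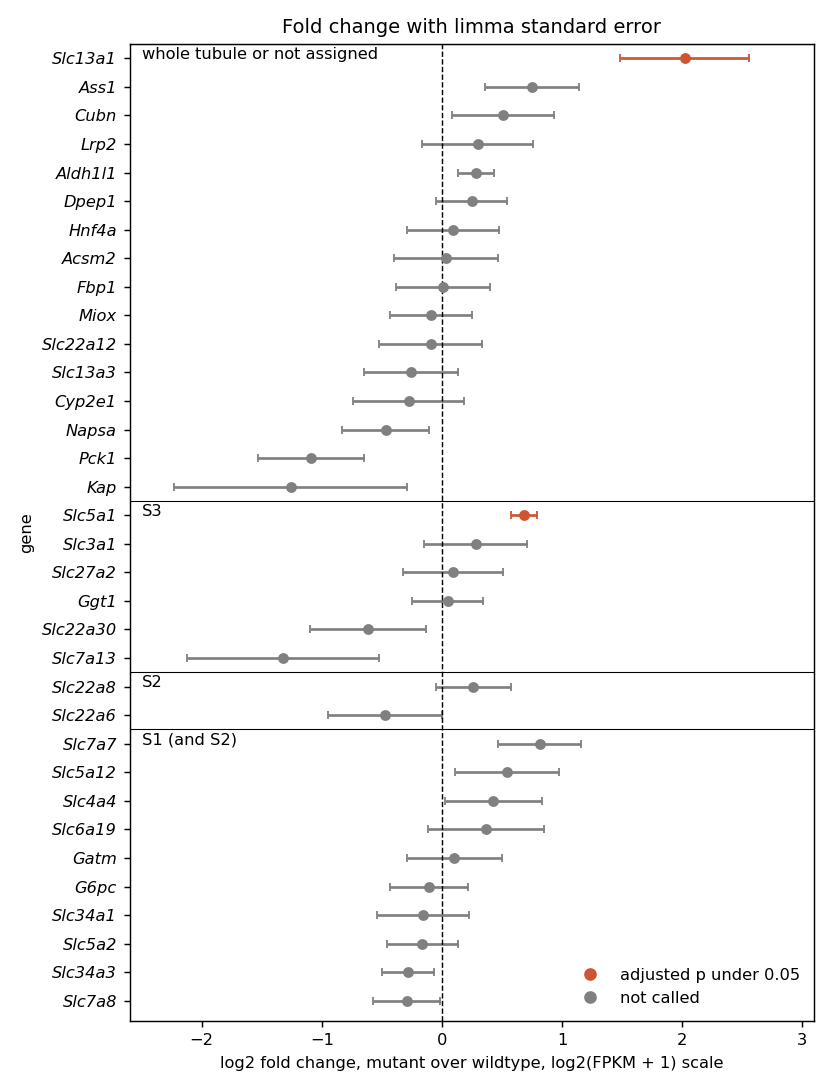
log2 fold change of each member, mutant over wildtype, on the log2(FPKM + 1) scale (horizontal) with its limma standard error (bars), grouped by segment. Slc5a1 (0.68) and Slc13a1 (2.02) are called, in orange, and the widest bar among the others belongs to Kap (-1.26, standard error 0.967).

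To compare members with the rest of the proximal tubule RNA in the same library, the libraries were also scaled on the list of other proximal tubule genes, a setting chosen after the values were seen. On that scale Slc13a1 was at 11.0, 10.3 and 13.3 in wildtype and at 73.8, 80.9, 32.6 and 26.1 in mutant libraries, and the gap between the groups widened. It was the 1 member called (log2 difference 1.96, standard error 0.438, limma adjusted p = 0.000739), where 0.566% of tested genes were called higher. On this scale limma gave all members similar standard errors, from 0.346 (Slc34a3) to 0.467 (Kap). Without it they ran from 0.106 (Slc5a1) to 0.967 (Kap). The p-values on this scale thus rest on a variance largely shared between genes, and not on each gene's own spread between libraries. No member was called lower (0 of 34, with 3 at an unadjusted p under 0.05 in limma), where 1.95% of tested genes were. Every mutant library lay above every wildtype library for Slc13a1 and Ass1, 2 of 34 members against 1.75% of tested genes, and below for Slc34a1, Slc13a3 and Pck1, 3 of 34 against 3.6%. Slc7a13 was at 27.5, 23.4 and 21.4 and at 7.30, 1.44, 13.7 and 27.0 and missed the threshold (log2 fold change -1.39, limma adjusted p = 0.0526), and Kap was at 3411, 2924 and 3014 and at 1304, 219, 1852 and 4465 (-1.33, limma adjusted p = 0.133). The wildtype spread of both became small on this scale, while that between mutant libraries stayed wide. Their standard errors here were 0.433 and 0.467, against 0.800 and 0.967 without this scaling, so the p-values do not reflect that wide spread. Slc5a1 was at 6.82, 7.73 and 5.34 and at 10.1, 10.6, 17.0 and 7.07, with overlapping groups. Its log2 difference there was 0.63, near the 0.68 without this scaling, but the standard error was 0.427 in place of 0.106, and it was not called (limma adjusted p = 0.9999). Scaling on proximal tubule genes adds spread to genes of other cells, and 2.52% of all tested genes were then called in either direction, against 16.1% without it.

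The other proximal tubule genes gave a similar picture. Of 52 tested, 2 were called higher and 0 lower, with 4 and 1 at an unadjusted p under 0.05 in limma, and the median log2 fold change was 0.05. Abcc4, an efflux pump for organic anions that many cell types carry, had a mean FPKM of 9.98 ± 1.19 in wildtype (SD, n = 3) and rose to 15.5 ± 1.67 in mutant isolates (SD, n = 4; limma adjusted p = 0.0108). Gda, guanine deaminase, was at 2.51, 2.44 and 2.85 in wildtype and at 13.7, 15.6, 6.56 and 5.36 in mutant libraries (log2 fold change 1.54, limma adjusted p = 0.0212). Like Slc13a1, it was highest in mutant 1 and mutant 2. Cyp4a14, a fatty acid hydroxylase with close copies that may share its reads, was at 3.35, 6.25 and 14.7 and at 30.5, 71.8, 12.5 and 40.2, without a call (limma adjusted p = 0.0536). Mme, neprilysin, also found on other cells, was at 8.03 to 9.13 and 9.71 to 11.6 (limma adjusted p = 0.0566). Cyp4b1, a cytochrome P450 and among the most abundant genes of the list, was at 186 to 238 and 105 to 291, with overlapping groups. Scaled on the whole list, Gda and Cyp4a14 were called higher (limma adjusted p = 0.016 and 0.000322) and Acy3, an aminoacylase, lower (log2 fold change -1.45, limma adjusted p = 0.0451). These p-values rest on the shared variance described above, and the genes themselves belong to the list that set the scaling. Without the scaling Acy3 was not called (limma adjusted p = 0.129).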

How the data were processed

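The 3 wildtype and 4 mutant libraries were grouped by sample titles. Tools listed, without order, in the submitters' processing notes are RSEM 1.2.28, Bowtie2 2.3.4.1 and Trimmomatic 0.39, with the build mm10. Per the file headers, the authors deposited 1 FPKM value per gene and library. The sources used here state no annotation, strand setting or scaling between libraries, so overlapping and near-identical genes may share reads, and depth is unknown. Of 27014 entries, 429 without a gene name were left out (18.35 to 29.26% of a library's FPKM), and 27 symbols on 2 entries were summed.

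The filter kept a mean FPKM of 1 or more, and limma 3.58.1 (R 4.3.3) was fitted to log2(FPKM + 1) (empirical Bayes with trend, two-sided, Benjamini-Hochberg over all 13420 genes, threshold 0.05), a script that was tested on simulated data. Fold changes on this scale understate those of low genes. The members, segments, other lists and motifs were chosen with earlier results of these data known. Named were all members and, of the other proximal tubule list, the 4 smallest p and the 2 highest levels. Some genes this rule names, and some of the 10 motif spellings searched, are not reported here. Kap, Napsa, Acy3 and others given in every library beyond the segment genes were chosen after their values were seen. Alternatives were other pseudocounts (0.1, 0.5), filters (none, a mean of at least 5), scalings, array weights, no trend, a replicate block, and each library left out in turn.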

Additional observations from a re-analysis of the deposited data

Results flagged for a closer look

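Among the 4 mutant libraries, 3 of 34 members had a library far from the others (a gap to its neighbour over 0.829 of the group's range). Lrp2 was low in mutant 3, at an FPKM of 7.97. Aldh1l1 was high in mutant 4, at 44.7, and so was Napsa, at 109. Chance flags about 1 in 20 such groups, and the 34 genes share their libraries.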

How the results depend on the processing

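Values hold no depth, and 3 against 4 libraries limit the precision. Over 645 fits of single members under other settings, 627 left the member on its side of the threshold, 13 ended a call and 5 made one. The sign of the fold change differed in 67, none of them with a call under either setting. The median log2 level difference of the members, 0.04 with an SD between libraries of 0.595, was -0.29 to 0.33 under the 10 settings tried. Of the members called higher, 2 in all, 1 was left with no filter, with median-of-ratios scaling and after scaling on the other proximal tubule list, 0 after scaling on the pan-endothelial list and 4 with array weights. Leaving out 1 library gave 1 to 3. Members called lower were 0 to 1 in those fits. Other proximal tubule genes called higher, 2 in all, were 1 after scaling on the pan-endothelial list, 7 with array weights and 0 to 6 without 1 library (0 without wildtype 2, 1 without wildtype 1, wildtype 3 or mutant 1, 6 without mutant 3). Those called lower, 0 in all, were 1 after scaling on the pan-endothelial or the other proximal tubule list, 1 with array weights and 0 to 2 without 1 library (2 without mutant 4). The replicate numbers gave no sign of pairing: the deviations of same-numbered libraries from their group means had correlations of -0.0781, -0.0216 and -0.234. Those of differently numbered libraries ran from -0.163 to 0.232. With 3 libraries of each group compared, this check cannot exclude a pairing. With the replicate number as a block, over libraries 1 to 3 of each group, 0 members were called higher and 1 lower, and 1 other proximal tubule gene was called higher and 2 lower. There Slc5a1 had a log2 difference of 0.69 (limma adjusted p = 0.0803) and Slc13a1 of 2.12 (limma adjusted p = 0.183), no smaller than without the block.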

Other observations

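Of the other proximal tubule genes, 28 of 52 were highest in mutant 4 and 33 of 52 lowest in mutant 3. Some of them had the wide range of Kap and Slc7a13 within the mutant group and were picked after their values were seen. Mep1b, a chain of the brush border protease meprin, was at an FPKM of 2.29, 2.04 and 3.84 in wildtype 1 to 3 and of 0.947, 0.193, 0.873 and 3.34 in mutant 1 to 4. Acy3 was at 84.4, 82.0 and 153 and at 36.5, 19.4, 27.2 and 112. Inmt, a methyltransferase, was at 56.8, 65.2 and 76.7 and at 51.1, 17.2, 33.3 and 103. Each was lowest in mutant 2 and highest in mutant 4 among the mutant libraries, and no cause of this order was tested.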
